A study of Mus musculus with 22 samples.

Results

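The 46 genes described here encode the working parts of mitosis: the entry kinase with its cyclins and phosphatases, the Polo and Aurora kinases, the spindle checkpoint, spindle motors, kinetochores, condensins and the cytokinesis apparatus. They were chosen by symbol, as a functional group, and all 46 were found among the 32544 symbols of both deposited count tables. None was at 0 in any of the 22 libraries, and all 46 passed the filter on low counts in every comparison.

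The libraries were bulk RNA-seq of mouse cells after 7 days of culture. Mammary cells came from the MMTV-HER2 mouse, in which a mammary tumor virus promoter drives the HER2 receptor in mammary epithelium, either at the early lesion stage or from primary tumors. Alveolar macrophages came from lungs of wildtype FVB mice, congenic with the mammary donors. The co-culture groups were early lesion cells kept with macrophages (3 libraries), primary tumor cells kept with macrophages (3 libraries), macrophages kept with early lesion cells (2 libraries) and macrophages kept with primary tumor cells (3 libraries). The mono-culture groups were early lesion cells alone (3), primary tumor cells alone (3), macrophages alone in the early lesion experiment (2) and macrophages alone in the primary tumor experiment (3). All 8 groups shared Matrigel-coated wells and a medium with horse serum, hydrocortisone, insulin and EGF, and the cell types were separated by FACS, though no source used here gives the gate. The labels call the replicates biological without naming animals or cultures, so the p-values measure the spread between these libraries, which may be technical in part.

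Mitosis begins when Cdk1, bound to cyclin B, is switched on by Cdc25 phosphatases, and it ends when the anaphase-promoting complex, with its activator Cdc20 and its ubiquitin-conjugating enzyme Ube2c, has the cyclins and the cohesion between chromosomes destroyed. Between those steps the Aurora and Polo kinases, the kinetochores and the motors build the spindle, and the checkpoint proteins hold anaphase back until every chromosome is attached. Most of these genes are transcribed mainly in G2 and M, through promoters bound by the DREAM and MuvB complexes and by NF-Y, so their summed RNA rises and falls with the share of dividing cells. Alveolar macrophages are known to renew themselves by division in the lung.

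Promoters of 5 of the genes are shown because they hold elements of this program and stand for entry (Cdk1), exit (Cdc20, Ube2c) and chromosomes (Top2a, Mki67). Each is read 5′ to 3′ on the gene's strand and ends at the base before the annotated start in RefSeq on GRCm38.p6: Cdk1 at chr10:69352913-69353032 (- strand), Cdc20 at chr4:118437344-118437463 (- strand), Ube2c at chr2:164769809-164769928 (+ strand), Top2a at chr11:99024190-99024309 (- strand) and Mki67 at chr7:135716380-135716579 (- strand). Capitals mark TTTGAA, the cell cycle homology region read by the MuvB complexes, with its reverse complement TTCAAA, and CCAAT, the NF-Y element, with its reverse complement ATTGG.
Cdk1: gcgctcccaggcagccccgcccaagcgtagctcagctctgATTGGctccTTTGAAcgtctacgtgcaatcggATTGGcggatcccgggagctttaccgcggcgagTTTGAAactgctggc
Cdc20: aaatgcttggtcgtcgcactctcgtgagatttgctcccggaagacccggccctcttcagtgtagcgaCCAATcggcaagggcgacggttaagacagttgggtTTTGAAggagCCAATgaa
Ube2c: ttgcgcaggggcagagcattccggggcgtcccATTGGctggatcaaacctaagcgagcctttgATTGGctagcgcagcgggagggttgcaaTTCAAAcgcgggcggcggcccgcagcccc
Top2a: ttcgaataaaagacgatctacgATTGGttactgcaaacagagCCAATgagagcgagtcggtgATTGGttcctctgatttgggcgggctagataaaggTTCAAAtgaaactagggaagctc
Mki67: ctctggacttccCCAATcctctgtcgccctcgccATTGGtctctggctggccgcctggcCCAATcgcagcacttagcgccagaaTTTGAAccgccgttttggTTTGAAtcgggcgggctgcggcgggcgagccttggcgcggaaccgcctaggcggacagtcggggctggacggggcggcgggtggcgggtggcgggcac

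RefSeq promoters of 300 bases (250 before and 50 after the start) were matched for 39 of the 46 genes; those of Tpx2, Pbk, Cdc25c, Ccna2, Kif20a, Aurkb and Smc4 were not used here. A gene with several promoters was counted once, as holding a motif if any of them did. On either strand, TTTGAA occurred for 29 of the 39 genes (74.36%) and for 20.23% of 27025 genes. CCAAT occurred for 30 (76.92%) and for 41.06% of all genes with promoters, and 25 genes had a promoter with both (64.1%, against 7.974%). Holding TTTGAA was set beside response as a description. The median log2 change in macrophages kept with primary tumor cells was -0.82 over the 29 genes that hold it and -0.93 over the 10 that lack it, and in co-cultured primary tumor cells the medians were 0.33 and 0.39. A match is a run of letters and says nothing of binding.

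Library totals were 19701436 to 43725724 counts, of which the 46 genes took 5719 to 129356. In the primary tumor experiment, mitochondrially encoded genes made up 74.9 to 78.6% of the counts of macrophages kept with tumor cells and 65.7 to 72.7% of those of macrophages alone, against 2.86 to 3.53% in the other libraries. Grip2 took 12.9% in 1 library of macrophages alone and 1.85 to 2.6% in the other macrophage libraries of that experiment. It took 1.08 to 7.38% in the tumor cell libraries, against 0.0165 to 0.0739% in the early lesion experiment. The labelled cell types matched their markers: 9 epithelial markers summed to 3648 to 5253 CPM in mammary libraries and 44.6 to 360.6 CPM in macrophage libraries, and 13 macrophage markers to 26010 to 74460 CPM in macrophage libraries and 6.38 to 84.3 CPM in mammary libraries (both without mitochondrial genes and Grip2). Exons of 15 of the 46 genes overlap another gene, over more than 10% of their length in Ccna2, Cdc25c, Ube2c, Kif4, Ncapg, Prc1 and Kif20a, up to 29.3% in Kif20a. No source used here gives the strand setting of the counting, so those counts are uncertain, as are those of Ccnb1, Ccnb2 and Kif4, which have pseudogene copies.

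Levels per transcript length are given as TPM, computed without mitochondrial genes and Grip2. TPM carry no TMM scaling, so differences between groups in TPM can differ in size from the log2 changes of the fits below. For macrophages kept with primary tumor cells the fall was larger in TPM. Mki67, whose product coats mitotic chromosomes, was the most abundant of the 46 in all 4 macrophage groups. It averaged 229 ± 25.6 TPM in macrophages kept with early lesion cells and 235 ± 24.1 TPM in macrophages alone of that experiment (SD, n = 2 each). In the primary tumor experiment it averaged 39.0 ± 8.68 TPM in macrophages kept with tumor cells and 131 ± 6.54 TPM in macrophages alone (SD, n = 3 each). Cdc20, the activator of the anaphase-promoting complex, led in all 4 mammary groups. Its level was 128 ± 22.1 TPM in co-cultured primary tumor cells and 102 ± 20.1 TPM in those alone, and 109 ± 29.8 TPM in co-cultured early lesion cells and 134 ± 15.5 TPM in those alone (SD, n = 3 each).

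The median gene of the 46 stood at 27.8 TPM in co-cultured early lesion cells and 33.6 TPM in early lesion cells alone, and at 25.9 TPM in co-cultured primary tumor cells and 21.0 TPM in primary tumor cells alone. Among macrophages it stood at 37.8 TPM beside early lesion cells and 37.2 TPM alone in that experiment, and at 8.39 TPM beside primary tumor cells and 16.7 TPM alone in the other. Macrophages kept with primary tumor cells thus had the lowest median of the 8 groups, and macrophages of the early lesion experiment the highest. The least abundant was Cdc25c, a phosphatase that activates Cdk1, in 5 groups; Aspm, a spindle pole protein, was lowest in both primary tumor groups and Ndc80 in macrophages kept with tumor cells. Levels across the 2 experiments come from separate tables and were not tested against each other.

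**Figure D1:**
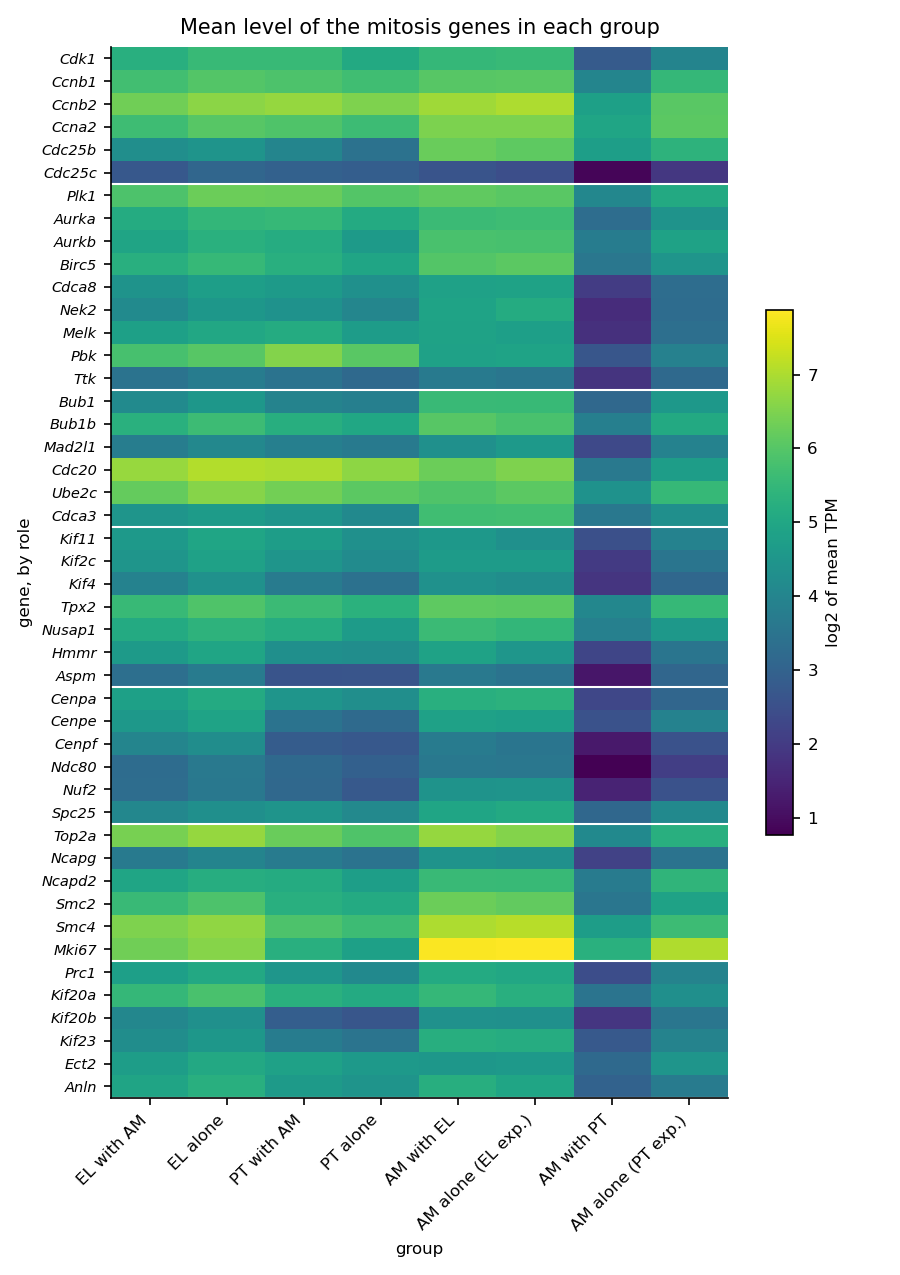
Mean level of each of the 46 genes (rows, by role) in each of the 8 groups (columns), as log2 TPM, with each co-culture group left of its mono-culture group. The column of macrophages kept with primary tumor cells is the darkest (lowest), with a median of 8.39 TPM against 16.7 TPM in macrophages alone. TPM carry no TMM scaling.

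The comparison of macrophages kept with primary tumor cells against macrophages alone addresses how macrophages differ after culture with tumor cells. In it 36 of the 46 genes fell and none rose at an adjusted p under 0.05, against 14.8% of the 11121 genes tested that fell and 15.8% that rose (edgeR quasi-likelihood, Benjamini-Hochberg over all genes tested). Levels of single genes are TMM-normalized CPM in replicate order, and values with ± in parentheses are log2 changes ± SE. The log2 change (co-culture over mono-culture) was below 0 for all 46, with a median of -0.80, while the median over all genes tested was near 0 and 49.9% of genes were below 0. In 38 of the 46 the libraries of the groups did not overlap, all lower, against 21.8% of genes tested. The summed level of the 46 was 388.1, 299.7 and 307.8 CPM in macrophages kept with tumor cells, against 651.2, 588.3 and 570.0 CPM in macrophages alone. After the mean of each group was subtracted, the median pairwise r between genes over the 6 libraries was 0.52, so the 46 are not 46 separate observations. In bulk RNA, fewer dividing cells and less RNA of these genes per cell cannot be told apart.

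Among the regulators of entry, 4 of 6 fell, with a median log2 change of -0.71. Cdk1, the entry kinase, had 5.33, 3.98 and 4.71 CPM in macrophages kept with tumor cells, against 6.82, 7.996 and 8.22 CPM in macrophages alone (-0.72 ± 0.16, edgeR adjusted p = 0.00364). Cyclin B1 (Ccnb1) had 10.3, 8.54 and 8.34 CPM in macrophages kept with tumor cells, against 21.9, 18.9 and 15.8 CPM in macrophages alone (-1.05 ± 0.14, adjusted p = 7.4e-05). The 3 libraries of either group kept apart for both. Cyclin B2 (Ccnb2) had 5.38, 5.82 and 6.40 CPM in macrophages kept with tumor cells, against 9.88, 9.97 and 10.7 CPM in macrophages alone, a log2 change of -0.80 ± 0.13. Ccna2, the cyclin of S and G2 phase, had 21.7, 14.5 and 14.7 CPM in macrophages kept with tumor cells, against 32.9, 27.8 and 22.7 CPM in macrophages alone, a log2 change of -0.70 ± 0.18 (edgeR adjusted p = 0.0125). Neither cyclin overlapped between groups, and the Cdc25 phosphatases were the members of this role that did not pass. Cdc25b had 16.1, 11.1 and 13.2 CPM in macrophages kept with tumor cells, against 16.2, 15.2 and 14.5 CPM in macrophages alone, the smallest change of the 46 (-0.18 ± 0.13). Cdc25c had 1.48, 1.21 and 0.922 CPM in macrophages kept with tumor cells, against 2.07, 1.48 and 2.05 CPM in macrophages alone (-0.62 ± 0.28, edgeR adjusted p = 0.11). In both phosphatases the groups overlapped.

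Of the 9 other mitotic kinases and their partners, 7 fell (median log2 change -0.79). Plk1, the Polo-like kinase of entry and spindle assembly, had 5.55, 4.93 and 4.46 CPM in macrophages kept with tumor cells, against 8.42, 7.12 and 6.74 CPM in macrophages alone (-0.57 ± 0.16, edgeR adjusted p = 0.013). Aurkb, the kinase of the chromosomal passenger complex, had 5.96, 5.03 and 5.19 CPM in macrophages kept with tumor cells, against 7.72, 8.37 and 9.25 CPM in macrophages alone (-0.65 ± 0.15, adjusted p = 0.00403). In both genes every library of macrophages kept with tumor cells was below every library alone. Birc5 (survivin), the subunit that docks this complex on chromosomes, had 6.23, 5.77 and 4.61 CPM in macrophages kept with tumor cells, against 8.56, 6.90 and 7.13 CPM in macrophages alone and just missed the threshold (-0.44 ± 0.16, edgeR adjusted p = 0.053). Aurka, the spindle pole Aurora, had 4.17, 3.04 and 2.96 CPM in macrophages kept with tumor cells, against 7.29, 3.79 and 5.01 CPM in macrophages alone and missed it too (-0.65 ± 0.24, edgeR adjusted p = 0.0572). Aurka was the more scattered, and its groups overlapped: 1 library alone (3.79 CPM) lay below the highest co-cultured one (4.17 CPM).

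Of the genes listed under checkpoint and exit, 5 of 6 fell (median -0.73), Cdca3 being the exception. Bub1b and Mad2l1 encode checkpoint proteins that hold Cdc20 inactive. Bub1b had 9.63, 8.07 and 7.23 CPM in macrophages kept with tumor cells, against 14.7, 14.5 and 13.8 CPM in macrophages alone (-0.78 ± 0.13, edgeR adjusted p = 0.000411). Mad2l1 had 8.29, 4.82 and 3.78 CPM in macrophages kept with tumor cells, against 15.0, 12.7 and 9.92 CPM in macrophages alone, with more scatter (-1.14 ± 0.27, edgeR adjusted p = 0.0114). Both sets of libraries stayed apart. Cdc20 had 3.14, 3.62 and 2.86 CPM in macrophages kept with tumor cells, against 4.75, 4.93 and 5.01 CPM in macrophages alone (-0.61 ± 0.17, edgeR adjusted p = 0.0126). Ube2c had 8.02, 6.08 and 7.96 CPM in macrophages kept with tumor cells, against 13.4, 11.8 and 10.3 CPM in macrophages alone (-0.68 ± 0.15, edgeR adjusted p = 0.00325). These libraries did not overlap either.

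Spindle genes gave the lowest median of the 7 roles (-1.002), and 6 of 7 fell, all but Nusap1. Kif11, the motor that pushes spindle poles apart, had 7.75, 4.87 and 4.17 CPM in macrophages kept with tumor cells, against 13.1, 10.9 and 9.92 CPM in macrophages alone (-1.002 ± 0.21, edgeR adjusted p = 0.00346). Tpx2, which nucleates microtubules and activates Aurora A, had 12.4, 9.80 and 9.61 CPM in macrophages kept with tumor cells, against 25.1, 20.1 and 19.1 CPM in macrophages alone (-1.01 ± 0.14, edgeR adjusted p = 9e-05). Aspm, which organizes spindle poles, had 4.30, 2.57 and 3.78 CPM in macrophages kept with tumor cells, against 11.7, 9.70 and 8.54 CPM in macrophages alone, and its log2 change of -1.48 ± 0.19 was the lowest of the 46 (edgeR adjusted p = 6.06e-05). All 3 genes had separate groups. Of the kinetochore genes, 4 of 6 fell (median -0.74). Ndc80, the microtubule-binding subunit of the outer kinetochore, had 1.25, 1.57 and 1.75 CPM in macrophages kept with tumor cells, against 2.63, 2.39 and 3.21 CPM in macrophages alone (-0.85 ± 0.23, edgeR adjusted p = 0.0134). Cenpa, the centromeric histone, had 3.90, 4.82 and 3.11 CPM in macrophages kept with tumor cells, against 5.46, 4.05 and 5.61 CPM in macrophages alone (-0.36 ± 0.20, edgeR adjusted p = 0.194), with overlapping groups.

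All 6 chromosome genes fell, with a median of -0.86. Mki67 had 59.0, 48.0 and 52.3 CPM in macrophages kept with tumor cells, against 138, 132 and 122 CPM in macrophages alone and the smallest adjusted p of the 46 (-1.30 ± 0.10, edgeR adjusted p = 5.46e-07). Ncapd2, a condensin I subunit, had 11.2, 12.3 and 10.4 CPM in macrophages kept with tumor cells, against 26.3, 25.5 and 28.5 CPM in macrophages alone (-1.25 ± 0.11, edgeR adjusted p = 1.76e-06). In both genes no library came near the other group's range. Ncapg, another condensin I subunit, had 5.82, 3.72 and 3.30 CPM in macrophages kept with tumor cells, against 9.69, 7.12 and 6.57 CPM in macrophages alone (-0.85 ± 0.22, edgeR adjusted p = 0.0114). Top2a, the topoisomerase that untangles sister chromosomes, had 26.2, 19.9 and 18.2 CPM in macrophages kept with tumor cells, against 34.7, 34.1 and 32.6 CPM in macrophages alone (-0.65 ± 0.12, edgeR adjusted p = 0.00118). Both fell with separate groups.

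Of the 6 cytokinesis genes, 4 fell (median -0.78). Kif20b, a kinesin of the midzone, had 3.94, 3.67 and 2.91 CPM in macrophages kept with tumor cells, against 9.27, 8.45 and 6.85 CPM in macrophages alone (-1.22 ± 0.17, edgeR adjusted p = 0.000142). Prc1, which bundles the microtubules of the midzone, had 7.75, 5.29 and 5.00 CPM in macrophages kept with tumor cells, against 14.0, 12.2 and 12.0 CPM in macrophages alone (-1.07 ± 0.16, edgeR adjusted p = 0.000236). Anln (anillin), the scaffold of the contractile ring, had 10.7, 8.86 and 9.90 CPM in macrophages kept with tumor cells, against 13.9, 11.2 and 10.7 CPM in macrophages alone, and its change missed the threshold (-0.28 ± 0.14, edgeR adjusted p = 0.144). Its libraries came close to meeting, while those of Kif20b and Prc1 lay far apart. In GRCm38 (GENCODE vM21) the genes with the smallest adjusted p lie at chr7:135689784-135716361 (Mki67, minus strand), chr6:125168007-125191701 (Ncapd2, minus strand) and chr1:139454772-139494091 (Aspm, plus strand).

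**Figure D2:**
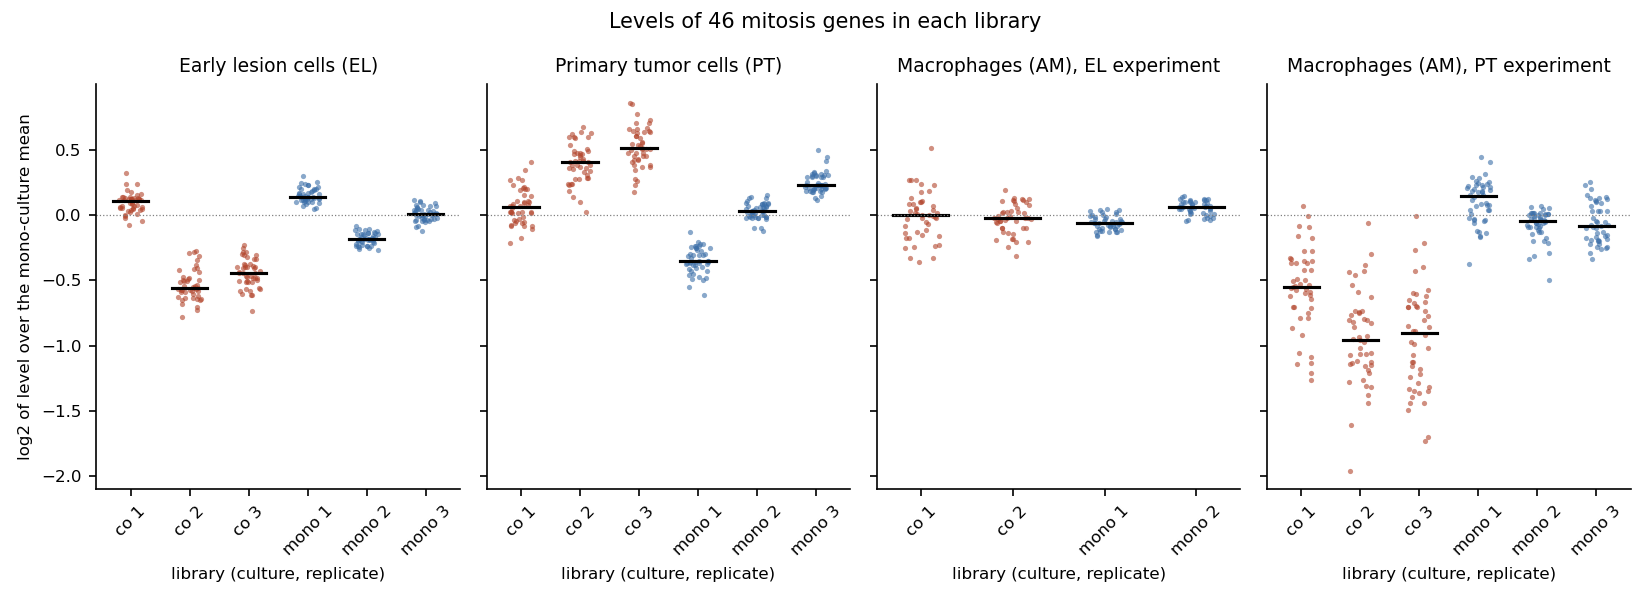
Log2 ratio of each of the 46 genes in each library over its mono-culture mean, in 4 panels for the 4 co-culture comparisons, with co-culture libraries left of mono-culture libraries. The 3 libraries of macrophages kept with primary tumor cells have medians of -0.55, -0.95 and -0.90, and co-cultured early lesion library 1 has 0.10 where libraries 2 and 3 have -0.56 and -0.45.

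Within the libraries of macrophages kept with primary tumor cells, 39, 45 and 45 of the 46 genes lay below all libraries of macrophages alone. Without co-culture replicate 3, Ccna2 (-0.61, adjusted p = 0.0595), Plk1 (-0.49, 0.0712), Cdc20 (-0.54, 0.0654) and Ncapg (-0.69, 0.0649) missed the threshold in edgeR, as did Mad2l1 without mono-culture replicate 1 (-1.01, adjusted p = 0.057) and Ndc80 without mono-culture replicate 3 or co-culture replicate 1 (-0.72 in both, adjusted p = 0.0563 and 0.0571). With mitochondrial genes and Grip2 left out, and under every other setting with all libraries, 35 to 40 genes were called. Epithelial markers summed to 188.1 to 206.3 CPM in these macrophages, against 44.6 to 54.7 CPM alone, where Esrp1 and Elf3 were at 0. In CPM without mitochondrial genes and Grip2, that is 4.75 to 5.21% of the level in co-cultured tumor cells. On the same scale the 46 genes stood at 53.97 to 77.31% of their level there. The size of that share depends on the scale: the 46 summed to 633.0, 397.2 and 445.5 TPM in these macrophages, against 1350, 1686 and 1859 TPM in co-cultured tumor cells. Endothelial markers summed to 81.6 to 120.7 CPM, against 220.5 to 252.9 CPM alone, and macrophage markers to 26010 to 27220 CPM, against 27730 to 35630 CPM. Neutrophil markers summed to 41.8 to 56.4 CPM, against 76.3 to 95.1 CPM alone, with S100a9, Ly6g and Retnlg at 0 in all 6 libraries. Basal markers summed to 14.8 to 33.8 CPM, against 2.83 to 5.60 CPM alone. The part of these shifts, and of the mitochondrial share, in the result was not tested. Which cells carried the endothelial markers was not tested either.

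Macrophages kept with early lesion cells were compared with macrophages alone in the same way. Of the 46 genes, 2 fell and none rose, against 9.19% of the 14032 genes tested that fell and 9.11% that rose (edgeR, adjusted p under 0.05), so the share of members called was below that of all genes. The median log2 change was -0.02, with 19 genes above 0 and 27 below. The summed level was 3823 and 3691 CPM in macrophages kept with early lesion cells, against 3642 and 3987 CPM in macrophages alone, and the groups overlapped. Mad2l1 had 52.3 and 53.0 CPM in macrophages kept with early lesion cells, against 66.0 and 65.5 CPM in macrophages alone (-0.32 ± 0.07, edgeR adjusted p = 0.00609). Nek2, a kinase that separates centrosomes, had 40.6 and 43.0 CPM in macrophages kept with early lesion cells, against 49.3 and 52.8 CPM in macrophages alone (-0.29 ± 0.08, edgeR adjusted p = 0.0218). Both sets of libraries were apart, as were those of 13 genes in the lower direction and 5 in the higher, against 29.9% and 29.3% of genes tested. Without mono-culture replicate 2, 6 genes were higher and 1 lower, against 10.1% and 9.79% of genes tested (edgeR). The higher ones were Hmmr (0.48, adjusted p = 0.000118), Anln (0.37, 0.000632), Kif20a (0.32, 0.0124; named after its values were seen), Top2a (0.27, 0.0205), Kif11 (0.27, 0.0436) and Bub1b (0.25, 0.0378), and Mad2l1 was the lower one. Without co-culture replicate 2, Hmmr (0.50, adjusted p = 3.19e-05) and Anln (0.26, 0.0381) were higher and Mad2l1, Nek2 and Cdc20 lower, against 10.6% and 9.69% of genes. Nek2 missed the threshold without mono-culture replicate 2 (-0.24, adjusted p = 0.0816), without co-culture replicate 1 (-0.25, adjusted p = 0.13), in DESeq2 (-0.28, adjusted p = 0.0506) and with the replicate number as a block (-0.29, adjusted p = 0.0589). Both genes missed it when all 4 groups of the experiment shared a fit (Mad2l1 -0.28, adjusted p = 0.269; Nek2 -0.25, adjusted p = 0.543).

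Genes of mitotic exit came next. Cdc20 had 42.5 and 49.2 CPM in macrophages kept with early lesion cells, against 53.4 and 55.7 CPM in macrophages alone (-0.25 ± 0.08, edgeR adjusted p = 0.0587). Ube2c had 48.4 and 49.9 CPM in macrophages kept with early lesion cells, against 56.9 and 57.2 CPM in macrophages alone (-0.21 ± 0.07, edgeR adjusted p = 0.0537). Both lay lower without overlap and missed the threshold. At the other end, Hmmr, a spindle protein that binds microtubules, had 56.2 and 43.0 CPM in macrophages kept with early lesion cells, against 35.3 and 43.6 CPM in macrophages alone (0.33 ± 0.16, the highest of the 46, edgeR adjusted p = 0.226). Kif11 had 57.0 and 52.2 CPM in macrophages kept with early lesion cells, against 44.98 and 51.9 CPM in macrophages alone. Anln had 108 and 103 CPM in macrophages kept with early lesion cells, against 81.0 and 99.0 CPM in macrophages alone (0.23 ± 0.09, edgeR adjusted p = 0.114). Hmmr overlapped between the groups, while Kif11 and Anln were higher in each co-cultured library without passing.

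Of the leading genes of the other roles, Cdk1, Mki67 and Aurkb lay near their mono-culture levels. Cdk1 had 67.0 and 74.3 CPM in macrophages kept with early lesion cells, against 77.9 and 73.1 CPM in macrophages alone. Mki67 had 768 and 671 CPM in macrophages kept with early lesion cells, against 718 and 809 CPM in macrophages alone. Aurkb had 50.4 and 54.3 CPM in macrophages kept with early lesion cells, against 52.8 and 54.0 CPM in macrophages alone. All 3 overlapped between the groups, with log2 changes of -0.10 ± 0.07, -0.09 ± 0.08 and -0.03 ± 0.07. Top2a had 308 and 297 CPM in macrophages kept with early lesion cells, against 249.9 and 294 CPM in macrophages alone (0.15 ± 0.08, edgeR adjusted p = 0.215). It was thus higher in each co-cultured library without passing. Epithelial markers summed to 314.5 to 360.6 CPM in macrophages kept with early lesion cells, against 145.2 to 170.9 CPM in macrophages alone. Of these, Cdh1 had 124.1 and 109.7 CPM, against 47.8 and 43.4 CPM in macrophages alone. Krt8 had 7.84 and 5.34 CPM, against 0.0439 and 0.0634 CPM. The markers thus differed widely in macrophages alone, and their sum does not measure epithelial cells alone. Basal markers summed to 24.8 and 13.6 CPM, against 2.77 and 3.14 CPM alone, and fibroblast markers to 73.2 and 59.6 CPM, against 54.5 and 26.5 CPM. Endothelial markers summed to 166.0 and 153.3 CPM, against 232.8 and 254.3 CPM alone, neutrophil markers to 27.5 and 29.7 CPM, against 38.3 CPM in both, and macrophage markers to 65870 and 67650 CPM, against 73310 and 74460 CPM. The part of these shifts in the values was not tested, nor was it tested which cells carried the endothelial markers.

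Whether the macrophage response differed by partner was tested as an interaction, primary tumor minus early lesion. For 29 of the 46 genes the log2 change was lower beside primary tumor cells at an adjusted p under 0.05, against 5.25% of the 13727 genes tested, and for all 46 it was below 0 (median -0.80). Ncapd2 (-1.23 ± 0.14, edgeR adjusted p = 0.000106), Mki67 (-1.22 ± 0.15, 0.000176) and Aspm (-1.60 ± 0.24, 0.000808) led. They were followed by Kif20b (-1.21 ± 0.21, edgeR adjusted p = 0.00172), Tpx2 (-1.01 ± 0.18, 0.00213) and Prc1 (-1.13 ± 0.20, 0.00243). The smallest difference was that of Cdca3 (-0.18 ± 0.22, edgeR adjusted p = 0.675). Each macrophage group belongs to 1 experiment, so partner and experiment cannot be told apart. The count was 10 without mono-culture replicate 1 of the early lesion experiment (against 1.59% of genes), 14 without its co-culture replicate 1 (1.76%) and 17 without its co-culture replicate 2 (2.71%). It was 7 when all 8 groups shared a fit (5.21%). The medians were -0.98 to -0.71 over all libraries left out in turn.

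Primary tumor cells kept with macrophages were compared with primary tumor cells alone to see how tumor cells differ after culture with macrophages. All 46 genes had a log2 change above 0, with a median of 0.33, while the median over all genes tested was near 0. None passed an adjusted p under 0.05 in edgeR, where 0.659% of the 13506 genes tested rose. At an unadjusted p under 0.05, 11 of the 46 were higher, against 9.40% of genes tested, and DESeq2 called 5, against 2.65%. The summed level was 1696, 2131 and 2318 CPM in co-cultured tumor cells, against 1254, 1641 and 1925 CPM in those alone, so the groups overlapped.

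Libraries with the same replicate number deviated together in this experiment, and within each number the co-cultured library was the higher. The median log2 ratio within a number was 0.38, 0.37 and 0.29, with 46, 45 and 42 of the 46 genes above 0. In the fit with the replicate number as a block, 38 of the 46 rose at an adjusted p under 0.05, against 10.6% of genes tested (edgeR). The labels number the replicates but state no pairing. The block was chosen from the deviations of these same libraries, so its p-values depend on that choice. The statements on single genes that follow give the unblocked change, then the blocked one with its adjusted p. After the mean of each group was subtracted, the genes moved together over the 6 libraries, with a median pairwise r of 0.95 between genes. This is a description over libraries that share depth and preparation, and by it the 46 are not 46 separate observations.

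Regulators of entry had a median log2 change of 0.31, and 5 of 6 rose in the blocked fit. Cdk1 had 51.0, 71.1 and 78.9 CPM in co-cultured tumor cells, against 37.0, 48.8 and 52.4 CPM in those alone (unblocked 0.54 ± 0.20, edgeR adjusted p = 0.209; blocked 0.53 ± 0.06, 5.41e-06). Cdc25b had 12.8, 17.9 and 20.3 CPM in co-cultured tumor cells, against 8.69, 12.4 and 12.7 CPM in those alone (unblocked 0.59 ± 0.21, edgeR adjusted p = 0.188; blocked 0.59 ± 0.09, 0.000151). For Cdc25b every co-cultured library was above every library alone, and for Cdk1 the lowest co-cultured library fell inside the mono-culture range. Ccnb1 had 56.9, 71.1 and 85.8 CPM in co-cultured tumor cells, against 50.9, 62.0 and 68.3 CPM in those alone. Ccnb2 had 39.2, 49.3 and 52.7 CPM in co-cultured tumor cells, against 31.9, 38.6 and 43.2 CPM in those alone. Ccna2 had 59.1, 72.6 and 78.4 CPM in co-cultured tumor cells, against 45.5, 59.8 and 64.0 CPM in those alone. The cyclins overlapped between groups, with unblocked changes of 0.24 ± 0.17, 0.31 ± 0.14 and 0.31 ± 0.15. Their blocked changes were 0.23 ± 0.06 (edgeR adjusted p = 0.00773), 0.31 ± 0.06 (edgeR adjusted p = 0.000998) and 0.32 ± 0.06 (0.000624). Cdc25c, with 9.47, 11.4 and 12.1 CPM in co-cultured tumor cells, against 7.76, 10.04 and 12.3 CPM in those alone, had a log2 change of 0.13 ± 0.18 and did not pass in either fit.

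The other kinases had the highest median of the roles, 0.42, and 9 of 9 rose in the blocked fit. Aurkb had 24.4, 30.6 and 36.7 CPM in co-cultured tumor cells, against 15.3, 20.6 and 24.8 CPM in those alone, the largest log2 change of the 46 (unblocked 0.59 ± 0.21, edgeR adjusted p = 0.198; blocked 0.60 ± 0.07, 1.04e-05). Pbk, a kinase made by mitotic cells, had 41.4, 49.5 and 53.2 CPM in co-cultured tumor cells, against 27.7, 32.7 and 37.7 CPM in those alone and the smallest adjusted p of the unblocked fit (0.55 ± 0.13, edgeR adjusted p = 0.0861; blocked 0.56 ± 0.06, 4.55e-06). Pbk kept its groups apart, and Aurkb overlapped by the lowest co-cultured library. Aurka had 27.8, 34.9 and 37.9 CPM in co-cultured tumor cells, against 20.2, 22.1 and 29.9 CPM in those alone. Birc5 had 31.0, 40.0 and 40.9 CPM in co-cultured tumor cells, against 24.8, 30.6 and 31.3 CPM in those alone. Plk1 had 36.8, 50.5 and 57.6 CPM in co-cultured tumor cells, against 29.0, 40.8 and 44.9 CPM in those alone. All 3 overlapped by co-culture replicate 1, with unblocked log2 changes of 0.48 ± 0.18, 0.37 ± 0.13 and 0.34 ± 0.22. Their blocked changes were 0.49 ± 0.07 (edgeR adjusted p = 0.000149), 0.37 ± 0.06 (edgeR adjusted p = 0.000454) and 0.34 ± 0.06 (0.000534).

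The checkpoint and exit genes had a median of 0.31, with 5 of 6 raised in the blocked fit and Bub1 the exception. Cdc20 had 56.1, 68.6 and 79.8 CPM in co-cultured tumor cells, against 43.6, 52.5 and 61.5 CPM in those alone (0.37 ± 0.16; blocked 0.37 ± 0.06, 0.000132). Ube2c had 48.8, 64.8 and 70.6 CPM in co-cultured tumor cells, against 39.2, 49.9 and 55.5 CPM in those alone (0.35 ± 0.17; blocked 0.35 ± 0.06, 0.000338). Both exit genes overlapped by co-culture replicate 1. Bub1b had 35.9, 46.8 and 55.3 CPM in co-cultured tumor cells, against 27.7, 39.7 and 46.2 CPM in those alone (0.28 ± 0.23; blocked 0.29 ± 0.06, 0.00241). Mad2l1 had 27.4, 35.9 and 39.7 CPM in co-cultured tumor cells, against 24.7, 29.9 and 33.9 CPM in those alone (0.22 ± 0.16; blocked 0.21 ± 0.06, 0.0233). In all 4 genes co-culture replicate 1 was the low library of its group and mono-culture replicate 1 the low one of the other. Of the spindle genes (median 0.35) 5 of 7 rose in the blocked fit. Kif11 had 47.6, 57.4 and 65.7 CPM in co-cultured tumor cells, against 32.7, 41.1 and 51.0 CPM in those alone (unblocked 0.45 ± 0.18, edgeR adjusted p = 0.248; blocked 0.46 ± 0.06, 4.08e-05). Nusap1, which bundles spindle microtubules, had 33.9, 43.9 and 46.9 CPM in co-cultured tumor cells, against 21.7, 30.0 and 33.1 CPM in those alone (unblocked 0.55 ± 0.18, edgeR adjusted p = 0.175; blocked 0.56 ± 0.06, 6.69e-06). Tpx2 had 49.6, 68.3 and 78.0 CPM in co-cultured tumor cells, against 38.5, 52.2 and 62.9 CPM in those alone (0.35 ± 0.23; blocked 0.35 ± 0.06, 0.000257). Nusap1 alone of these 3 had separate groups. Aspm, with 17.7, 20.2 and 22.5 CPM in co-cultured tumor cells, against 14.3, 21.7 and 23.7 CPM in those alone, had the lowest log2 change of the 46 (0.01 ± 0.19; blocked 0.03 ± 0.09, 0.825).

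Of the kinetochore genes (median 0.32) 4 of 6 rose in the blocked fit, Cenpe and Cenpf being the exceptions. Cenpa had 30.8, 38.1 and 43.0 CPM in co-cultured tumor cells, against 27.0, 31.8 and 35.6 CPM in those alone (0.24 ± 0.15; blocked 0.24 ± 0.06, 0.00953). Ndc80 had 14.4, 18.3 and 18.4 CPM in co-cultured tumor cells, against 10.6, 13.6 and 16.9 CPM in those alone (0.31 ± 0.18; blocked 0.32 ± 0.09, 0.0178). Both overlapped. Of the chromosome genes (median 0.34) 4 of 6 rose in the blocked fit. Top2a had 152, 209 and 223 CPM in co-cultured tumor cells, against 108, 155 and 190.5 CPM in those alone (0.37 ± 0.24; blocked 0.38 ± 0.05, 9.9e-05). Ncapg had 21.8, 28.5 and 29.3 CPM in co-cultured tumor cells, against 15.9, 23.8 and 24.5 CPM in those alone (0.31 ± 0.19; blocked 0.32 ± 0.07, 0.00478). Mki67 had 102, 117 and 112 CPM in co-cultured tumor cells, against 50.5, 72.3 and 109 CPM in those alone, a log2 change of 0.51 ± 0.28 that passed neither without the block nor with it (0.57 ± 0.28, edgeR adjusted p = 0.338). Mono-culture replicate 3 lay within the co-cultured range for Mki67, while replicates 1 and 2 lay below it. All 6 cytokinesis genes (median 0.27) rose in the blocked fit. Prc1 had 42.4, 55.6 and 61.3 CPM in co-cultured tumor cells, against 30.5, 40.0 and 48.5 CPM in those alone (0.42 ± 0.20; blocked 0.43 ± 0.06, 8.21e-05). Anln had 54.6, 65.5 and 75.2 CPM in co-cultured tumor cells, against 43.9, 54.9 and 63.3 CPM in those alone (0.27 ± 0.16; blocked 0.27 ± 0.06, 0.00214).

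Libraries of the groups did not overlap, all higher, in 6 of the 46 genes (Smc4, Kif4, Ncapd2, Pbk, Nusap1 and Cdc25b), against 12.3% of genes tested. Epithelial markers summed to 3869 to 4083 CPM in co-cultured tumor cells, against 3648 to 3780 CPM alone, and fibroblast markers to 381.6 to 411.4 CPM, against 304.5 to 530.7 CPM. Macrophage markers summed to 15.8 to 19.1 CPM, against 6.38 to 8.69 CPM alone, where Itgax, Marco and Ear2 were at 0. The part of these shifts in the result was not tested. Leaving out any 1 library of the 6 gave 0 called genes in the unblocked fit and medians of 0.18 (without mono-culture replicate 1) to 0.46 (without mono-culture replicate 3).

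Early lesion cells kept with macrophages were compared with early lesion cells alone for the same reason. All 46 genes had a log2 change below 0 (median -0.26), where 49.6% of the 14891 genes tested were below 0. None passed an adjusted p under 0.05, against 0.141% of genes tested that fell, none was lower at an unadjusted p under 0.05, against 7.10%, and DESeq2 called none, against 1.42% lower. The summed level was 2751, 1786 and 1921 CPM in co-cultured early lesion cells, against 2896, 2268 and 2584 CPM in those alone. Co-culture replicate 1 was the high library: 12 genes in it exceeded every library alone and 0 lay below them all, whereas all 46 lay below every library alone in replicates 2 and 3.

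Each library was left out in turn. Co-culture replicate 1 was singled out because it was high in these same genes. The fit without it is thus a description, and its calls are no separate test. Without co-culture replicate 2 the median log2 change was -0.14. Without co-culture replicate 1 it was -0.50, and 29 of the 46 fell, against 5.90% of genes tested (edgeR). The roles then gave 3 of 6 entry genes, 7 of 9 other kinases, 4 of 6 checkpoint and exit genes, 5 of 7 spindle genes, 3 of 6 kinetochore genes, 3 of 6 chromosome genes and 4 of 6 cytokinesis genes. Aurkb (-0.60 ± 0.09, edgeR adjusted p = 0.00751), the checkpoint kinase Bub1 (-0.62 ± 0.10, 0.0082) and Plk1 (-0.67 ± 0.12, 0.0217) were among them. The median log2 ratio within a replicate number was -0.06, -0.37 and -0.43, with 33, 46 and 46 genes below 0. In co-culture replicate 1 fibroblast markers summed to 3651 CPM, against 1162 and 1677 CPM in the other co-cultured libraries and 2206, 1115 and 1886 CPM in those alone. Basal markers summed to 3417, 2204 and 2721 CPM in co-cultured early lesion cells, against 4010, 3496 and 3838 CPM alone, in the same order as the 46 genes within the co-cultured libraries. Neutrophil markers summed to 70.4, 107.7 and 93.4 CPM in co-cultured early lesion cells, against 31.2, 57.7 and 59.3 CPM alone. The part of these cell types in the result was not tested.

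Among the entry genes (median -0.26) Cdk1 had 66.5, 41.0 and 44.1 CPM in co-cultured early lesion cells, against 69.1, 56.3 and 57.6 CPM in those alone (-0.27 ± 0.20). Ccnb1 had 78.0, 47.1 and 52.9 CPM in co-cultured early lesion cells, against 81.9, 59.3 and 68.1 CPM in those alone (-0.23 ± 0.22). Ccna2 had 75.0, 42.3 and 49.6 CPM in co-cultured early lesion cells, against 75.3, 62.5 and 69.6 CPM in those alone (-0.31 ± 0.22). Replicate 1 of the co-culture reached the mono-culture range in all 3. Ccnb2 had 44.1, 26.9 and 29.4 CPM in co-cultured early lesion cells, against 44.3, 36.2 and 39.8 CPM in those alone (-0.26 ± 0.19). Cdc25c had 10.5, 9.17 and 6.68 CPM in co-cultured early lesion cells, against 12.4, 9.74 and 11.1 CPM in those alone (-0.32 ± 0.17). Cdc25b had 26.5, 17.4 and 14.9 CPM in co-cultured early lesion cells, against 23.2, 18.8 and 21.4 CPM in those alone, the change nearest 0 (-0.10 ± 0.21). In Cdc25b replicate 1 exceeded every library alone. The other kinases had a median of -0.29. Plk1 had 49.0, 26.2 and 30.4 CPM in co-cultured early lesion cells, against 50.4, 38.7 and 45.5 CPM in those alone (-0.35 ± 0.25). Aurka had 32.2, 17.9 and 22.3 CPM in co-cultured early lesion cells, against 34.0, 25.9 and 28.9 CPM in those alone (-0.29 ± 0.22). Aurkb had 31.6, 18.7 and 20.9 CPM in co-cultured early lesion cells, against 31.4, 27.0 and 31.3 CPM in those alone (-0.33 ± 0.20). In Aurkb the high co-cultured library slightly exceeded every library alone. Birc5 had 44.9, 29.0 and 31.4 CPM in co-cultured early lesion cells, against 45.3, 37.1 and 41.9 CPM in those alone (-0.24 ± 0.17). Each of these 4 had the same order within the co-culture, replicate 1 high and replicate 2 low.

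Checkpoint and exit genes had a median of -0.29. Bub1b had 59.0, 36.1 and 38.0 CPM in co-cultured early lesion cells, against 63.3, 49.2 and 56.2 CPM in those alone (-0.34 ± 0.21). Mad2l1 had 37.8, 25.4 and 30.5 CPM in co-cultured early lesion cells, against 40.8, 33.3 and 37.1 CPM in those alone (-0.25 ± 0.15). In both checkpoint genes the lower co-cultured libraries were below all libraries alone. Cdc20 had 71.0, 43.8 and 49.5 CPM in co-cultured early lesion cells, against 72.6, 60.0 and 64.1 CPM in those alone (-0.26 ± 0.19). Ube2c had 65.0, 41.9 and 48.1 CPM in co-cultured early lesion cells, against 71.9, 60.5 and 63.1 CPM in those alone (-0.33 ± 0.16). Only the co-cultured replicate 1 overlapped with the libraries alone. Spindle genes had the lowest median, -0.31. Kif11 had 59.4, 40.7 and 43.8 CPM in co-cultured early lesion cells, against 68.6, 52.7 and 57.7 CPM in those alone (-0.31 ± 0.17). Tpx2 had 77.0, 49.1 and 51.7 CPM in co-cultured early lesion cells, against 80.4, 64.8 and 76.2 CPM in those alone (-0.31 ± 0.19). Kif4, a chromosome-bound motor, had 28.7, 19.0 and 19.8 CPM in co-cultured early lesion cells, against 32.2, 25.6 and 31.0 CPM in those alone, the lowest log2 change and smallest adjusted p of the 46 (-0.39 ± 0.18, edgeR adjusted p = 0.363). In these 3 genes as well, replicates 2 and 3 lay below every library alone.

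Kinetochore genes had a median of -0.26. Cenpa had 58.8, 35.7 and 38.8 CPM in co-cultured early lesion cells, against 58.6, 48.7 and 53.2 CPM in those alone (-0.26 ± 0.20). Ndc80 had 21.7, 13.4 and 16.1 CPM in co-cultured early lesion cells, against 23.4, 18.5 and 21.1 CPM in those alone (-0.29 ± 0.18). Chromosome genes had a median of -0.23. Top2a had 263, 166 and 186 CPM in co-cultured early lesion cells, against 286, 215 and 258 CPM in those alone (-0.30 ± 0.20). Ncapg had 30.0, 20.6 and 23.7 CPM in co-cultured early lesion cells, against 31.4, 26.5 and 29.7 CPM in those alone (-0.24 ± 0.14). Mki67 had 265, 189 and 195 CPM in co-cultured early lesion cells, against 297, 215 and 249 CPM in those alone (-0.23 ± 0.17). The co-cultured library 1 was again the high one for every gene named here. Cytokinesis genes had a median of -0.26. Prc1 had 79.2, 49.8 and 53.6 CPM in co-cultured early lesion cells, against 79.0, 62.9 and 74.8 CPM in those alone (-0.24 ± 0.19). Anln had 102, 57.7 and 61.3 CPM in co-cultured early lesion cells, against 108, 75.4 and 88.3 CPM in those alone (-0.29 ± 0.26). After the mean of each group was subtracted, the median pairwise r between genes over the 6 libraries was 0.96. This is a description over libraries that share depth and preparation. Plk1 was tied most closely to the rest (median r 0.98) and Cdc25c least (0.68).

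**Figure D3:**
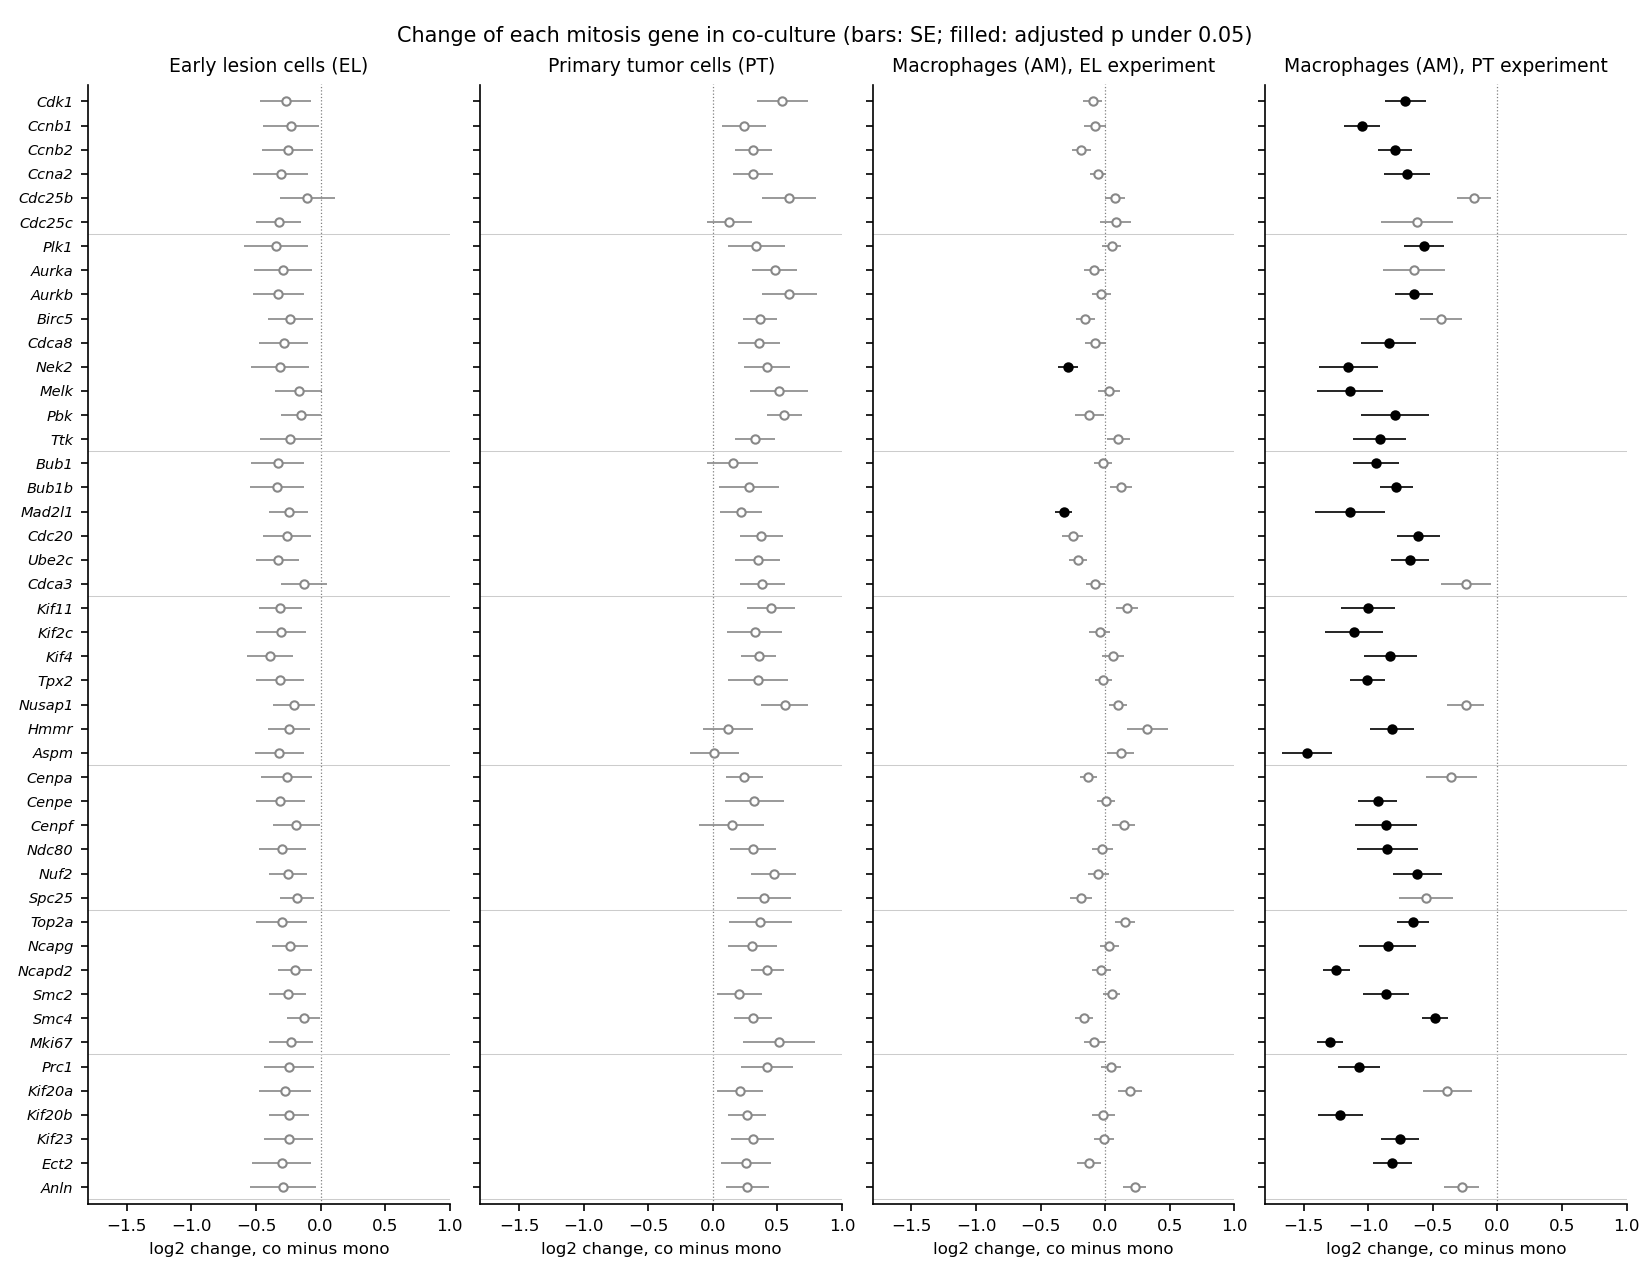
Log2 change of each of the 46 genes (co-culture over mono-culture, points, with SE as lines) in the 4 comparisons, grouped by role; filled points passed an adjusted p under 0.05 in edgeR. All 46 lie above 0 in primary tumor cells (0 filled), below 0 in early lesion cells (0 filled) and below 0 in macrophages kept with primary tumor cells (36 filled), and 2 are filled in macrophages kept with early lesion cells.

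The difference of the mammary responses, primary tumor minus early lesion, was above 0 for all 46 genes, with a median of 0.62, from 0.33 ± 0.30 for Aspm to 0.92 ± 0.33 for Aurkb. None passed an adjusted p under 0.05 (edgeR; 0.0393% of the 15284 genes tested did so in the higher direction, and DESeq2 called 0 of the 46, against 0.824%). At an unadjusted p under 0.05, 14 of the 46 were higher, against 6.85% of genes tested. Pbk had the smallest adjusted p, 0.21 (0.71 ± 0.23). With co-cultured early lesion replicate 1 left out, 1 passed, against 0.457%. With the replicate number as a block, 37 of the 46 were higher, against 3.93% of genes tested, led by Kif11 (0.79 ± 0.08, edgeR adjusted p = 0.000231) and Cdk1 (0.83 ± 0.10, 0.000596). The numbers were taken to pair the primary tumor libraries, and not the early lesion ones, which enter the same fit. That choice came from the deviations of these same libraries, so the blocked p-values depend on it. This difference reuses all 12 mammary libraries of the comparisons above, and tumor stage and experiment cannot be told apart.

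Both cell types alone were compared within each experiment, on TMM-normalized CPM. Early lesion cells were lower than macrophages in 35 of the 46 genes and higher in 1, against 37.0% and 40.7% of the 15696 genes tested (edgeR), with a median log2 difference of -0.77. Primary tumor cells were lower than macrophages in 30 and higher in 2, against 36.7% and 42.3% of 13575 genes, with a median of -0.75. By TPM, which carry no TMM scaling, the median gene stood higher in primary tumor cells alone (21.0) than in those macrophages (16.7). The direction of the median in that experiment thus depended on the scaling between unlike cell types. In the early lesion experiment the TPM medians, 33.6 in early lesion cells and 37.2 in macrophages, had the direction of the fit. The direction of single genes could depend on the scaling there too. By TPM, Plk1 (78.0 against 66.3) and Top2a (107.5 against 93.5) stood higher in early lesion cells, where the fit had them lower. Mki67 (96.7 against 235.1) and Cdc25b (21.7 against 69.3) were lower by both. These comparisons share the mono-culture libraries used above. Pbk was higher in the mammary cells of both experiments: 29.9, 24.4 and 28.3 CPM in early lesion cells, against 18.3 and 21.9 CPM in macrophages (0.44 ± 0.11, edgeR adjusted p = 0.00538). In the other experiment it had 12.9, 15.1 and 17.4 CPM in primary tumor cells, against 5.93, 6.65 and 7.15 CPM in macrophages (1.20 ± 0.15, edgeR adjusted p = 5.07e-05). Pbk missed the threshold in the early lesion experiment without macrophage replicate 1 (0.32, adjusted p = 0.0573).

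Cdc20 was the other gene higher in primary tumor cells, with 20.4, 24.3 and 28.4 CPM, against 11.8, 12.3 and 12.5 CPM in macrophages (0.99 ± 0.14, edgeR adjusted p = 9.27e-05). In the early lesion experiment it had 65.9, 54.4 and 58.1 CPM in early lesion cells, against 62.2 and 65.4 CPM in macrophages (-0.10 ± 0.08, edgeR adjusted p = 0.277). Those groups overlapped in the early lesion experiment and stood apart in the primary tumor one. Mki67 had 270.0, 195 and 226 CPM in early lesion cells, against 836 and 950.2 CPM in macrophages (-1.95 ± 0.14). It had 23.6, 33.5 and 50.4 CPM in primary tumor cells, against 341, 331 and 305 CPM in macrophages, the lowest difference of the 46 there (-3.18 ± 0.25). Cdc25b was the lowest in the early lesion experiment, with 21.1, 17.1 and 19.4 CPM in early lesion cells, against 90.3 and 105 CPM in macrophages (-2.35 ± 0.10, edgeR adjusted p = 3.27e-08). It had 4.06, 5.74 and 5.88 CPM in primary tumor cells, against 40.0, 38.1 and 36.3 CPM in macrophages (-2.87 ± 0.15, edgeR adjusted p = 5.59e-08). Mki67 and Cdc25b were thus higher in every macrophage library alone than in any mammary library alone of the same experiment.

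Genes of the same machinery outside the 46 were taken from 6 lists. In macrophages kept with primary tumor cells 15 of 26 other kinetochore and passenger genes fell (median -0.68), among them Cenpi (-1.26 ± 0.25), Ska3 (-1.20 ± 0.24) and Casc5, now called Knl1 (-0.83 ± 0.18). Of other spindle and cytokinesis genes 18 of 27 fell (median -0.69), with the citron kinase Cit (-1.16 ± 0.17), Dlgap5 (-1.21 ± 0.20) and Troap (-1.41 ± 0.25) leading. Of condensin, cohesin and separase genes 7 of 16 fell and 1 rose (median -0.28): the condensin II subunits Ncapg2 (-0.99 ± 0.19) and Ncapd3 (-0.68 ± 0.16) and the separase Espl1 (-0.92 ± 0.18) fell, and the cohesin subunit Stag2 rose (0.28 ± 0.09). Of the anaphase-promoting complex only Anapc1 (-0.36 ± 0.11) of 17 genes fell, and the median was -0.01.

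Of the transcription factors of the program and the inhibitors of entry, 8 of 17 fell in macrophages kept with primary tumor cells (median -0.55), among them Mybl2 (B-Myb, -1.12 ± 0.22), E2f7 (-0.86 ± 0.18) and Wee1, the kinase that holds Cdk1 inactive (-1.18 ± 0.15). Of the genes of origin licensing 8 of 12 fell (median -0.78), with Orc1 (-1.34 ± 0.24), Cdt1 (-0.79 ± 0.14) and the helicase subunit Mcm6 (-0.88 ± 0.16). Over the 6 lists together 57 of 115 genes tested fell in those macrophages (49.6%) and 1 rose, against 14.8% and 15.8% of all genes tested. In macrophages kept with early lesion cells 6 of 116 fell (5.17%), a smaller share than the 9.19% of all genes tested that fell, and none rose, against 9.11%. Those that fell were Pttg1, or securin (-0.46 ± 0.09), Lin52 (-0.41 ± 0.12), Dsn1 (-0.31 ± 0.10), Cdc26 (-0.31 ± 0.09), Anapc5 (-0.23 ± 0.06) and Cdt1 (-0.22 ± 0.07). In mammary cells no gene of the 6 lists passed in either experiment. There the medians in primary tumor cells were 0.28 for kinetochore, 0.30 for spindle, 0.08 for condensin and cohesin, 0.06 for the anaphase-promoting complex, 0.24 for transcription factors and 0.36 for licensing genes. In early lesion cells they were -0.20, -0.29, -0.03, -0.04, -0.17 and -0.32 in the same order of lists.

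**Figure D4:**
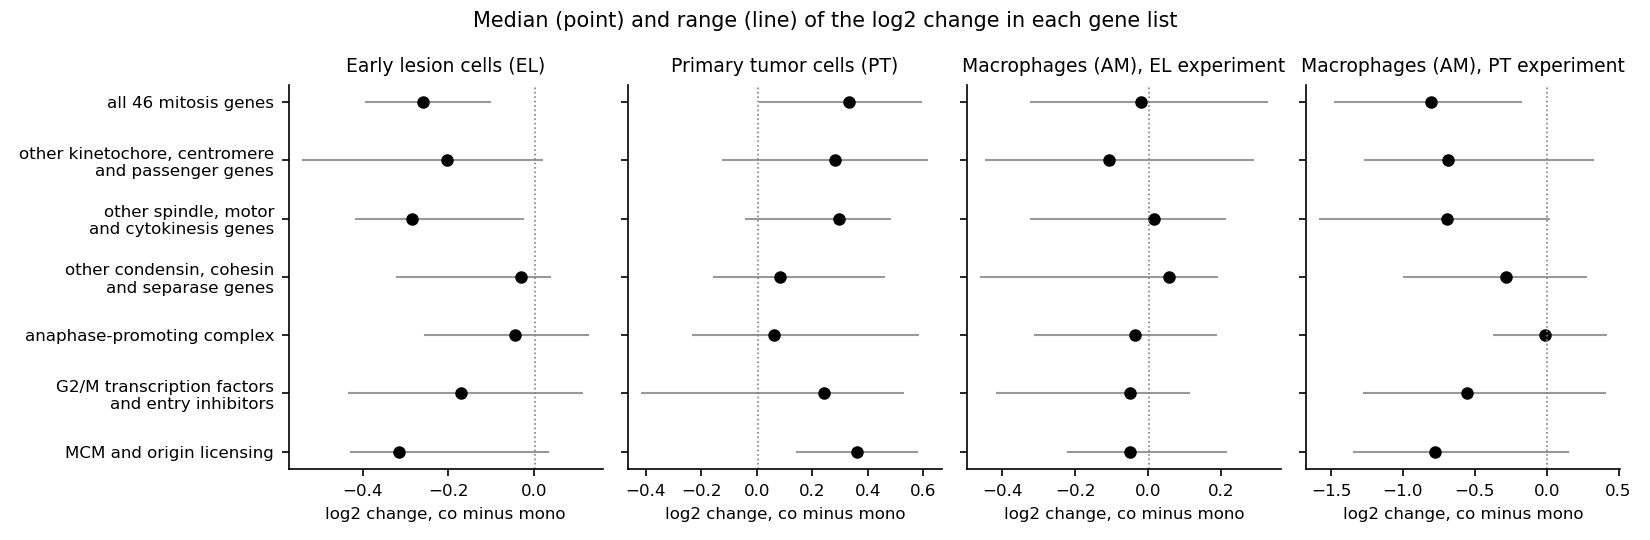
Median log2 change (point) and range (line) of the 46 genes and of 6 lists of related genes in the 4 co-culture comparisons; the dotted line is the median of all genes tested. In macrophages kept with primary tumor cells the 46 genes stand at -0.80 and the anaphase-promoting complex at -0.01; in co-cultured primary tumor cells the 46 stand at 0.33 and in co-cultured early lesion cells at -0.26.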

How the data were processed

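The deposited tables, 1 for each experiment, hold raw read counts per gene symbol in 22 libraries, per the labels. The submitters' processing notes name bcl2fastq 2.17 and the mm10 build. How reads were aligned and counted, and with which annotation, no source used here says. Per the labels' protocols, libraries were oligo-dT selected (NEBNext Ultra). A spreadsheet had turned 27 symbols into dates; none is a gene described here.

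Groups came from the labels. Each comparison was fitted on its own groups with edgeR 4.0.16 in R 4.3.3 (filterByExpr, TMM, robust quasi-likelihood F test, two-sided), with p-values adjusted by Benjamini-Hochberg across every tested gene and a threshold of 0.05; differences of responses were interaction terms. CPM were TMM-normalized, with totals that include mitochondrial genes. TPM used exon lengths of GENCODE vM21. The scripts were checked on simulated counts. Alternatives were a replicate block, each library left out in turn, mitochondrial genes and Grip2 left out, 1 fit for an experiment's groups, DESeq2 1.42.0, RLE scaling, counts without the filter and non-robust dispersion. Replicates differed by more than sampling noise.

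The genes and lists were chosen with earlier results of these data known. Single genes were named by a list of 23 across the roles, plus the lowest and highest log2 change and up to 6 called genes per direction by adjusted p in each comparison, and up to 3 per direction of the other lists. Replicate numbers from the labels were taken to pair the primary tumor cell libraries, whose same-numbered deviations from the group means had r of 0.461, 0.350 and 0.468, and not the early lesion libraries (0.287, 0.227 and 0.0612) or the macrophages (-0.0902 to 0.00418).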

Additional observations from a re-analysis of the deposited data

Results flagged for a closer look

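The macrophage response to co-culture differed between the experiments by a test of the difference itself (interaction, primary tumor minus early lesion, edgeR). The test called 29 of the 46 genes, all lower beside primary tumor cells, against 5.25% of genes tested. By adjusted p the leading genes were Ncapd2 with a log2 difference of -1.23, Mki67 with -1.22, Aspm with -1.60, Kif20b with -1.21, Tpx2 with -1.01 and Prc1 with -1.13. Partner and experiment cannot be told apart, and the mitochondrial share of counts, 65.7 to 78.6% in the macrophages of the primary tumor experiment, goes with the experiment; its part in the difference was not tested. In macrophages kept with primary tumor cells the median log2 change was -0.84 to -0.80 over the alternatives that keep all libraries, 1 of which leaves out mitochondrial genes and Grip2. Groups of 3 libraries or fewer were not searched for outliers.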

How the results depend on the processing

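Fits with fewer libraries have fewer degrees of freedom; otherwise the cause of the shifts below was not tested. Where 1 library remained in a macrophage group of the early lesion experiment, it was assumed to vary like the other group. Of 2796 values of single genes under alternatives, 2580 kept their direction and side of the threshold, 104 gained a call, 80 lost one and 32 reversed. Counts of called genes moved as follows. With the replicate block they were 38 in primary tumor cells, 4 in early lesion cells (Kif11, Aspm, Cenpe and Kif2c; 1.22% of genes tested), 37 for the mammary difference (3.93%) and 1 in macrophages with early lesion cells; the block changed no call by over 1.5 times elsewhere. DESeq2 gave 5 in primary tumor cells and 1 in macrophages with early lesion cells. In those macrophages no filter gave 6 (Hmmr and Anln higher, 4 lower) and a fit of all 4 groups 0, with a median of 0.0214; a fit of all 8 groups gave 7 for the macrophage difference. No block was run for mammary cells against macrophages.

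Leaving out each library in turn gave 0 to 29 called genes in early lesion cells (median -0.498 to -0.139), 0 to 0 in primary tumor cells (0.179 to 0.464), 1 to 7 in macrophages with early lesion cells (-0.0559 to 0.0373), 28 to 39 in macrophages with primary tumor cells (-0.913 to -0.715), 0 to 1 for the mammary difference (0.454 to 0.852), 10 to 32 for the macrophage difference (-0.984 to -0.708), 31 to 43 for early lesion cells against macrophages and 30 to 35 for primary tumor cells against macrophages.

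Reversals in the fit of all 4 groups, macrophages with early lesion cells, were Aurkb 0.0106, Tpx2 0.0269 and Ndc80 0.018. In mammary cells against macrophages, Cdc25c reversed in the early lesion experiment with no filter (0.0164) and in the primary tumor experiment with RLE (-0.0104) and DESeq2 (-0.0109); Plk1 reversed there with no filter (0.134) and without mitochondrial genes and Grip2 (0.0141), and Ndc80 with no filter (0.0783). Leaving out single libraries reversed Cdc25b in early lesion cells (-0.381 to 0.0557), Cdc25c in primary tumor cells (-0.0265 to 0.301), Aspm in primary tumor cells (-0.179 to 0.157), Cdc25b in macrophages with early lesion cells (-0.0196 to 0.177), Plk1 in macrophages with early lesion cells (-0.0063 to 0.0999), Ncapg in macrophages with early lesion cells (-0.0369 to 0.0986), Prc1 in macrophages with early lesion cells (-0.0527 to 0.143), Ccnb1 in macrophages with early lesion cells (-0.189 to 0.0397), Tpx2 in macrophages with early lesion cells (-0.0624 to 0.0273), Aurkb in macrophages with early lesion cells (-0.0887 to 0.0238), Mki67 in macrophages with early lesion cells (-0.185 to 0.0034), Cdca3 in the macrophage difference (-0.306 to 0.0069), Cdc25c in early lesion cells against macrophages (-0.154 to 0.0201), Kif11 in early lesion cells against macrophages (-0.197 to 0.051), Plk1 in primary tumor cells against macrophages (-0.181 to 0.109), Aurka in primary tumor cells against macrophages (-0.428 to 0.0291), Cdc25c in primary tumor cells against macrophages (-0.161 to 0.16) and Ndc80 in primary tumor cells against macrophages (-0.285 to 0.0506), each given as the lowest and highest log2 value over the libraries left out. Depth limits the macrophages of the primary tumor experiment, where the 46 genes held 5719 to 16149 counts per library.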
